A study of Mus musculus with 12 samples.

Results

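The genes described here carry the acidification machinery, the proteases and the membrane scaffold of the lysosome in mouse Treg cells, the regulatory branch of CD4 T cells that keeps immune responses in check. They were chosen by name from the expression table: every symbol that begins with Atp6v, every cathepsin with a single-letter suffix, the LAMP and LAMTOR genes, and Lgmn, Tfeb, Tfe3 and Mitf. This gave 54 of 24421 entries. By role they were 10 entries of the membrane sector V0 and 13 of the cytosolic sector V1 of the proton pump, 19 cathepsins and legumain, 4 LAMP genes, 5 Ragulator subunits and 3 transcription factors of the MiT/TFE family. RNA was sequenced from sorted Treg cells of C57BL/6 mice aged 7 weeks, in 12 libraries of 3 per group. The 2 genotypes were WT and Foxp3CreBatffl/fl, here called KO, in which Cre driven by the Treg factor Foxp3 deletes a floxed allele of Batf, an AP-1 family transcription factor. Cells were taken unstimulated or after 48 h on antibodies to CD3 and CD28 bound to the plate at 5 µg/ml, in medium with 200 U/ml of IL-2. The unstimulated cells had no time in culture and no IL-2, and no group was cultured without the antibodies. Effects of antibody, IL-2 and culture therefore cannot be told apart, and stimulation below stands for all of them together. CD3 is part of the antigen receptor, CD28 gives the second signal that T cells need, and Treg cells depend on IL-2 to grow. The labels do not say whether the WT mice carried the Cre allele, which sort gate was used or how many animals each group stands for. The p-values therefore reflect library-to-library spread, which may be technical.

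The lumen of a lysosome is held acidic by the vacuolar ATPase (V-ATPase). Its V1 sector hydrolyses ATP and turns a rotor that drives protons through the V0 sector, and most cathepsins are proteases that work at this low pH. The Ragulator complex, made of the LAMTOR proteins, anchors the Rag GTPases on the lysosomal surface, where mTORC1 is switched on, and mTORC1 in turn keeps TFEB and TFE3, activators of many lysosomal genes, out of the nucleus. In T cells, mTORC1 signalling follows engagement of the antigen receptor, and cathepsin C trims the granzymes of killer cells into their active form.

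Levels are given as RPKM (reads scaled by exon length and by the assigned reads of the library), which can be compared between genes. Fold changes and tests are from limma on log2(RPKM + 1), a scale that understates changes of genes with low values, and p-values were adjusted by Benjamini-Hochberg over 10406 genes, those that reached 1 RPKM in 3 libraries. A gene is called changed where its adjusted p was under 0.05. Of the 54 entries 36 were tested, 8 were at 0 in every library and 10 were too low for the test. Libraries held between 22731823 and 32055383 assigned reads. RPKM are shares of a library, so less RNA of a gene per cell and fewer cells that carry it cannot be told apart.

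Batf itself was at 102.67, 93.26 and 90.03 RPKM in unstimulated WT libraries 1 to 3 and at 46.91, 32.99 and 25.94 RPKM in KO libraries. At 48 h it was at 133.95, 125.33 and 127.77 RPKM in WT and at 26.49, 21.20 and 17.98 RPKM in KO. Every KO library was below every WT library of its state (log2 fold change -1.45 and -2.52, limma adjusted p = 0.000189 and 1.17e-06). The unstimulated call was lost without the 4 WT libraries with Y-linked transcripts (0.0747). Y-linked transcripts were present in WT libraries 1 and 2 of both states and summed to at most 0.17 RPKM in the other 8, so sex was partly confounded with genotype; Lamp2 and Tfe3 lie on the X chromosome. The 6 Treg markers (Foxp3, Il2ra, Ctla4, Ikzf2, Cd4, Cd3e) summed to 868 to 953 RPKM in WT and 743 to 870.1 in KO before stimulation, and to 739 to 819.8 in WT and 487 to 534 in KO at 48 h. Transcripts of other cells were present in the unstimulated libraries. The 10 macrophage and monocyte markers summed to 30.4 to 38.0 RPKM in WT and 20.6 to 22.6 in KO before stimulation, and to 2.99 to 3.5 in WT and 0.729 to 1.60 in KO at 48 h, when C1qa and C1qb were at 0 in every library. The 5 B cell markers summed to 37.4 to 43.1, 42.3 to 85.8, 2.50 to 4.18 and 3.63 to 7.97 RPKM in the same order of groups. The 7 dendritic cell markers summed to 2.04 to 2.57, 3.96 to 5.20, 1.46 to 2.04 and 4.14 to 11.1 RPKM, the last mostly Batf3. The 5 CD8 T and NK cell markers summed to 85.4 to 94.5, 105 to 134, 175 to 280.4 and 191 to 314 RPKM, mostly Nkg7. The 6 neutrophil and mast cell markers summed to 0.576 to 39.1, 0.847 to 24.2, 0 to 1.61 and 0 to 0.233 RPKM. The part of these transcripts in the changes below was not tested beyond the values given beside them.

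Promoters are shown for a pump subunit and a protease that carry the palindrome bound by TFEB and its relatives, and for the cathepsins Ctso and Ctss, which had the largest falls among cathepsins that also differed by genotype. These 4 were chosen after their values were seen. Each is the stretch of 250 bases before the RefSeq start site on GRCm38.p6, 5′ to 3′, with CACGTG or TCACGTGA in capitals.
Ctsd (chr7:142387828-142388077, minus strand): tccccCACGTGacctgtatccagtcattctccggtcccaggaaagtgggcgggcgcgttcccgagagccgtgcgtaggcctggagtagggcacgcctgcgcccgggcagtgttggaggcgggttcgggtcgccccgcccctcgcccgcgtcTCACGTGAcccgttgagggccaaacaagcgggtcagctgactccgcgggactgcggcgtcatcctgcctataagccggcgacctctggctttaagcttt
Atp6v1a (chr16:44139260-44139509, minus strand): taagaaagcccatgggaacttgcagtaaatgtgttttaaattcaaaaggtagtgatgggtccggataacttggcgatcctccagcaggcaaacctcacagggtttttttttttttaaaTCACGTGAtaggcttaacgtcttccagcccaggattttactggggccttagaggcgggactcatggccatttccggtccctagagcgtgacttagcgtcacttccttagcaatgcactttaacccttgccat
Ctso (chr3:81932351-81932600, plus strand): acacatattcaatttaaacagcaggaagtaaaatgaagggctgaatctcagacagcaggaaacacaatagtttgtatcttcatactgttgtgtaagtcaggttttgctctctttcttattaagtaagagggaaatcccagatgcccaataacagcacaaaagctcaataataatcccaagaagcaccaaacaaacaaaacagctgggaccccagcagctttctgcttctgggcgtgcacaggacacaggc
Ctss (chr3:95526536-95526785, plus strand): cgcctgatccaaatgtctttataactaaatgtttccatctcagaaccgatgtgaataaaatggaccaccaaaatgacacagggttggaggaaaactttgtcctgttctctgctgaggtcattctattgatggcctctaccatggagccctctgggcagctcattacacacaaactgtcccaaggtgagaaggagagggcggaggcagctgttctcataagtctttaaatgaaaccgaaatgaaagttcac

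RefSeq promoters (250 bases before to 50 after the start) were found for 42 of the 54 entries, Ctsh not among them, and the RefSeq starts of Ctsd, Ctso and Atp6v1a differ from those in the deposited table. The 8-base palindrome TCACGTGA, which contains the E-box CACGTG, was in the promoters of 5 of these 42 genes (11.9%), against 0.974% of all 32851 promoters and 2.47% of the tested genes with a promoter. These were Atp6v0d1, Atp6v0e, Atp6v1a, Ctsa and Ctsd. In Ctsd it lay 99 to 92 bases before the start site and in Atp6v1a 132 to 125 bases before it. For Ctsa it was in 1 of 2 RefSeq start windows. CACGTG alone was in 12 of the 42 (28.6%), against 7.15% of all promoters and 12.3% of the tested genes. The related TCATGTGA was in 4 of 42 (9.52%, against 0.986% of all promoters and 0.889% of the tested genes). Among them was Ctss, where it lay 18 to 25 bases after the start. TGANTCA, the sequence recognised by AP-1 factors, was in 2 of 42 (4.76%, against 7.81% of all promoters and 5.66% of the tested genes), those of Atp6v0a1 and Tfe3. Both strands were searched. These are matches of letters, not sites shown to be bound.

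With stimulation more of the lysosomal genes fell than rose, and the cathepsins held the deepest falls. In WT cells, 20 of the 36 tested genes were lower and 10 higher at 48 h, where 35.4% of all tested genes were lower and 44.5% higher. The share called in either direction was 83.3% in WT and 75% in KO, close to the 79.9% and 78.8% of all tested genes. The median log2 fold change of the 13 tested cathepsins and legumain was -1.08, against -0.18 for the tested V0 genes, -0.15 for V1 and 0.11 over all tested genes. Of these 13, 10 fell and 2 rose, and Ctsg and Ctsh among the falls entered the test only through unstimulated libraries. The 5 V0 genes divided into 2 rises and 3 falls, and the 9 V1 genes into 3 rises, 4 falls and 2 that did not pass. In KO cells 17 members were lower and 10 higher, against backgrounds of 34.6% and 44.3%, and 9 cathepsins fell while 2 rose. Median-ratio scaling moved the median of all genes from 0.11 to 0.02 in WT and from 0.12 to 0.02 in KO, and then called 21 lower and 9 higher in WT and 21 lower and 8 higher in KO.

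**Figure D1:**
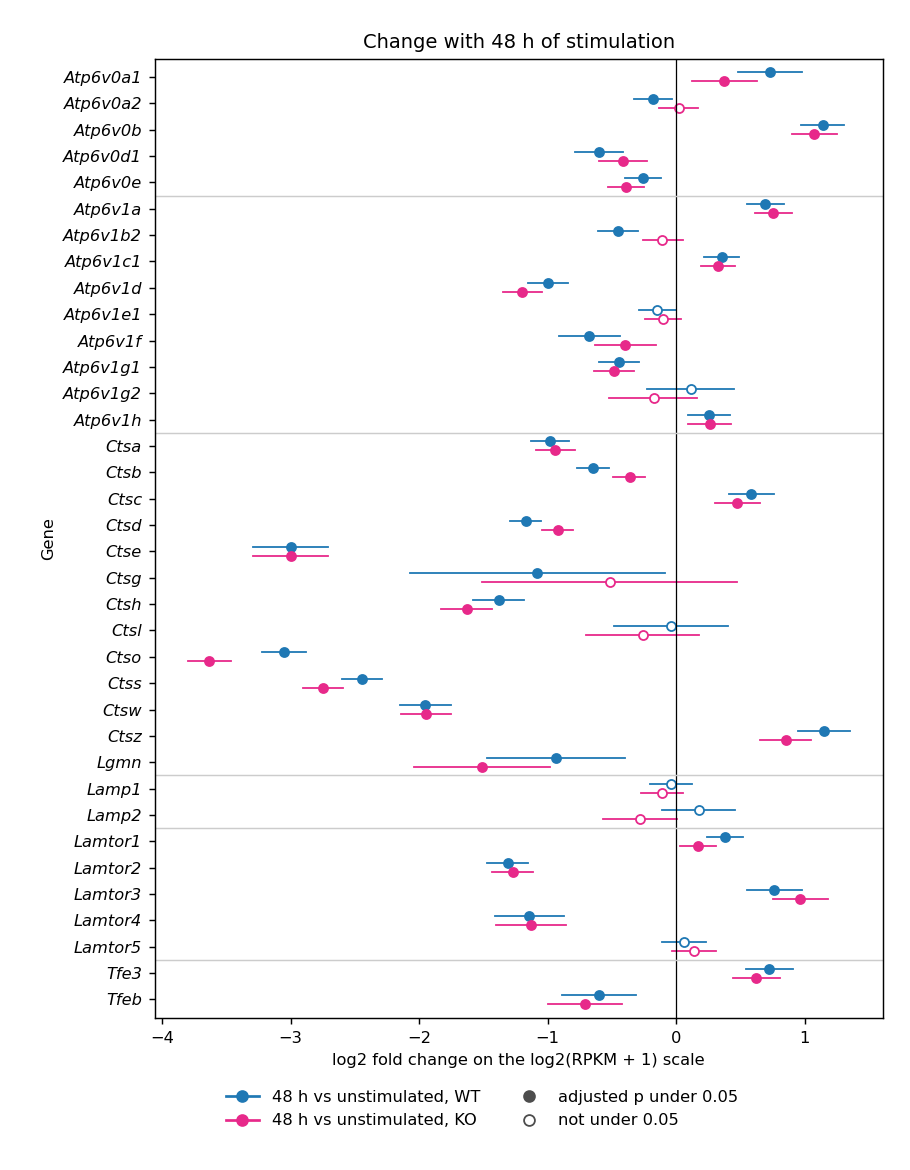
Log2 fold change of the 36 tested genes from unstimulated to 48 h on the log2(RPKM + 1) scale, in WT (blue) and KO (pink), with 95% confidence intervals from limma; filled points had an adjusted p under 0.05. The cathepsins Ctso, Ctse, Ctss and Ctsw lie farthest to the left in both genotypes, at -1.95 or below in WT.

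Ctss, the cysteine protease that cuts the invariant chain of MHC class II in antigen-presenting cells, had the highest listed level of the members in unstimulated cells. Its share of the library was much lower at 48 h. It was at 516.63, 566.85 and 543.50 RPKM in unstimulated WT libraries and at 89.57, 100.70 and 106.05 RPKM at 48 h. All unstimulated values were above all stimulated ones, and the mean fell 5.49-fold (log2 fold change -2.45, SE 0.07, limma adjusted p = 6.76e-12). In KO it went from 556.25, 500.69 and 484.97 to 74.21, 76.22 and 76.27 RPKM (-2.75, adjusted p = 4.55e-12). The sums of the macrophage and B cell markers fell along with it, as given above. Of 6 tested macrophage markers 5 were called lower in WT, against 35.4% of all tested genes, and Cd68 was not (log2 fold change 0.21, limma adjusted p = 0.197). In KO all 6 were called lower, against 34.6%. The 5 markers apart from Cd68 were at most 0.43 RPKM at 48 h and entered the test only through unstimulated libraries. Both counts therefore follow in part from the filter and cannot be set against the shares. Csf1r, Adgre1, Cd14 and Itgam of the same list were too low for the test. Ctso, a cysteine protease with few known substrates, fell to a small part of its level: 22.43, 21.08 and 22.49 RPKM became 1.75, 1.58 and 2.01 in WT, and 22.49, 22.78 and 21.70 became 0.94, 0.84 and 0.87 in KO. The ranges were far apart in both genotypes, with means 12.4-fold lower in WT and 25.3-fold lower in KO (log2 fold change -3.05, SE 0.08, adjusted p = 2.66e-12, and -3.63, adjusted p = 9.37e-13).

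Ctse, an endosomal aspartic protease of immune cells, went from 18.95, 20.92 and 17.39 to 1.35, 1.19 and 2.05 RPKM in WT, and from 12.92, 17.16 and 16.50 to 0.90, 1.05 and 1.22 in KO. No stimulated library reached an unstimulated one, and the log2 fold change was -3.00 in each genotype (SE 0.13, limma adjusted p = 2.02e-10 in WT and 2.56e-10 in KO). Ctsw, a papain-like protease best known from CD8 T and NK cells, fell from 54.30, 60.79 and 57.57 to 15.61, 12.94 and 13.94 RPKM in WT and from 59.03, 48.17 and 48.60 to 12.36, 13.66 and 12.08 in KO. The fall was 4.06-fold in WT and 4.09-fold in KO (log2 fold change -1.95 in both). Among the CD8 T and NK markers Cd8b1 was at 15.05 to 17.68 RPKM in the 6 unstimulated libraries and at 3.38 to 5.62 RPKM at 48 h. Nkg7, the most abundant marker of that list, went the other way, from a mean of 66.7 to 219 RPKM in WT and from 101 to 260 RPKM in KO (log2 fold change 1.68 and 1.33), and the sum of the list was higher at 48 h, as given above. Ctsd, the main lysosomal aspartic protease, went from 188.77, 191.14 and 203.62 to 88.60, 85.05 and 84.00 RPKM in WT, a fall of 2.26-fold (log2 fold change -1.17, SE 0.05, adjusted p = 2.73e-10). The other cathepsins that fell in WT were Ctsa (log2 fold change -0.98), Ctsb (-0.65), Ctsh (-1.38), Lgmn (-0.93) and Ctsg (-1.08). The Lgmn call was lost without the 4 libraries with Y-linked transcripts (adjusted p = 0.106). The exons of Ctsb share 773 of 4743 bases with Fdft1 on the opposite strand, which rose (0.81), and the labels do not say whether reads were counted by strand.

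Ctsg, a serine protease of neutrophil granules, stood apart from the other falls because its values differed between libraries of one group. It was at 4.46, 1.12 and 0.00 RPKM in unstimulated WT, at 1.39, 0.22 and 0.00 in unstimulated KO, and at most 0.23 RPKM at 48 h. Only 3 libraries, unstimulated WT 1 and 2 and KO 1, reached 1 RPKM, and without any one of them Ctsg was not tested. It thus entered the test only through the state in which it was high. Its log2 fold change of -1.08 in WT is also the median of the 13 tested cathepsins and legumain. The neutrophil genes Elane (11.29, 2.53 and 0.00 in WT; 0.47, 0.00 and 0.00 in KO) and Mpo (14.05, 1.58 and 0.13; 1.06, 0.55 and 0.00) were likewise highest in WT library 1. S100a8 and S100a9 of the same marker list were instead highest in KO unstimulated library 1 (12.48 and 9.92 RPKM, against 8.17 and 5.33 in WT library 1). The part of neutrophil transcripts in the Ctsg values was not tested. The Ctsg call (limma adjusted p = 0.0442) was lost without WT 48 h library 1, 2 or 3 (0.0569, 0.0965 and 0.0935), KO unstimulated library 2 (0.0536) or KO 48 h library 1, 2 or 3 (0.0527, 0.0534 and 0.0533), and with a pseudocount of 0.1, no filter or limma-voom (0.0741, 0.0993 and 0.152).

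Against this trend, Ctsz and Ctsc rose. Ctsz, a carboxypeptidase, was at 63.61, 63.47 and 63.51 RPKM in unstimulated WT and at 150.09, 145.91 and 132.16 RPKM at 48 h. The ranges did not overlap, and the mean was 2.25-fold higher (log2 fold change 1.15, SE 0.09, limma adjusted p = 5.84e-08). In KO it went from 78.01, 63.41 and 61.53 to 136.70, 116.74 and 114.64 RPKM (0.85, adjusted p = 1.35e-06). Ctsc, the dipeptidyl peptidase that activates granzymes, rose from 54.01, 46.96 and 52.09 to 77.14, 77.18 and 75.99 RPKM in WT (0.58, adjusted p = 1.7e-05). Ctsl, a cysteine protease of the endolysosome, was at 3.59, 4.25 and 2.56 RPKM without and at 2.77, 3.76 and 3.39 RPKM with stimulation in WT, which overlap.

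The order of the cathepsins was therefore different at 48 h. In unstimulated WT cells the mean levels were 542 ± 25.1 RPKM for Ctss, 195 ± 7.98 for Ctsd, 98.6 ± 4.59 for Ctsb, 63.5 ± 0.0728 for Ctsz and 57.6 ± 3.24 for Ctsw (SD, n = 3). The ranges of these neighbours did not overlap. At 48 h Ctsz led with 143 ± 9.38 RPKM, followed by Ctss with 98.8 ± 8.41, Ctsd with 85.9 ± 2.41, Ctsc with 76.8 ± 0.675 and Ctsb with 62.7 ± 2.05. In KO at 48 h Ctsd (86.0 ± 1.82) stood above Ctss (75.6 ± 1.18) and Ctsb (70.2 ± 1.08) above Ctsc (63.4 ± 2.32), each pair in the reverse of its order in WT. Summed over the 19 genes, cathepsin and legumain RNA went from 1114 ± 24.6 to 516 ± 4.53 RPKM in WT and from 1036 ± 65.9 to 461 ± 8.37 RPKM in KO. Ctss made up 48.7% ± 1.31 of that sum in unstimulated WT and 19.1% ± 1.79 at 48 h, while Ctsz went from 5.70% ± 0.134 to 27.6% ± 1.58. Without Ctss the sum still went from 572 ± 9.19 to 417 ± 12.8 RPKM in WT.

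**Figure D2:**
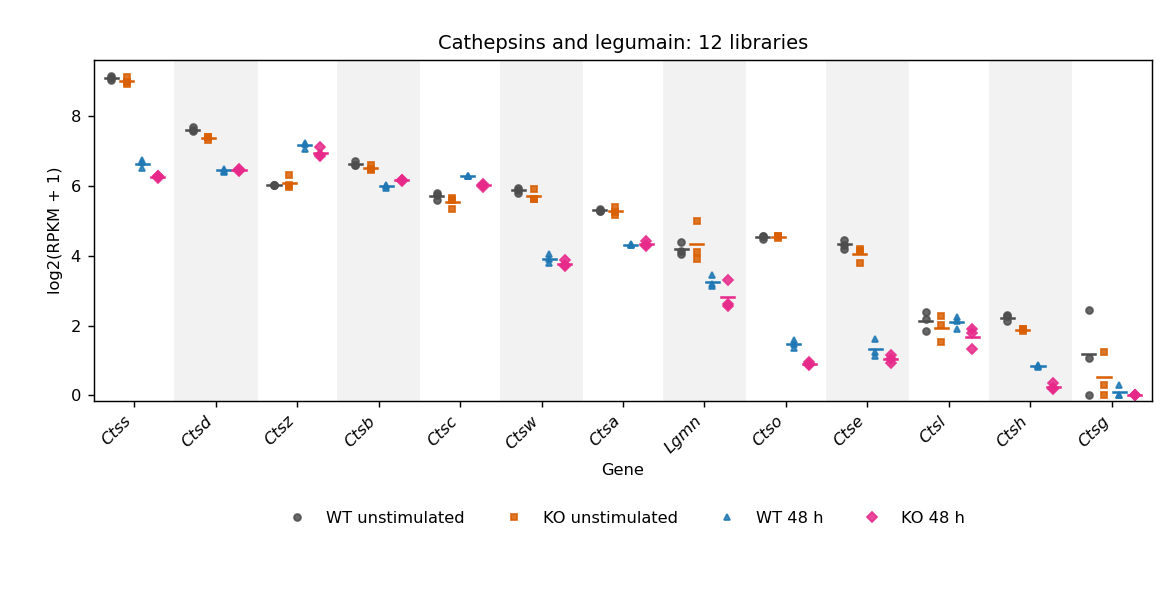
Levels of the 13 tested cathepsins and legumain on a log2(RPKM + 1) axis, 1 point per library and a bar at the mean of each group of 3. Ctss falls from the top of the plot, Ctsz and Ctsc rise with stimulation, and the KO points of Ctso and Ctsh at 48 h lie below the WT points.

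The subunits of the proton pump moved in different directions. The V0 genes summed to 287 ± 5.17 RPKM in unstimulated WT and 289 ± 14.0 RPKM at 48 h (SD, n = 3), and in KO to 288 ± 19.1 and 284 ± 5.10 RPKM. These V0 sums hold no usable value of Atp6v0c, as given below, and leave out Tcirg1, a V0 subunit outside the name rule. The V1 genes summed to 574 ± 19.0 and 442 ± 27.4 RPKM in WT and to 579 ± 12.3 and 480.2 ± 11.1 RPKM in KO. Atp6v0e, a small membrane subunit with the highest listed level of the V0 entries, was at 176.32, 180.84 and 179.90 RPKM in unstimulated WT and at 150.64, 142.11 and 155.66 RPKM at 48 h. The ranges did not overlap, with a log2 fold change of -0.26 (limma adjusted p = 0.00222), and the call was lost without the 4 libraries with Y-linked transcripts (0.176). Atp6v0b, a proteolipid of the proton-carrying ring, went the other way, from 37.45, 39.42 and 39.09 to 95.97, 86.89 and 77.23 RPKM in WT and from 45.21, 39.31 and 45.76 to 93.47, 90.30 and 93.68 in KO. Every stimulated library was above every unstimulated one, by 2.24-fold in WT and 2.13-fold in KO (log2 fold change 1.14, SE 0.08, adjusted p = 1.57e-08, and 1.08, adjusted p = 3.05e-08). The other V0 genes in WT were Atp6v0a1 (0.73) among the rises, and Atp6v0d1 (-0.60) and Atp6v0a2 (-0.18) among the falls. The Atp6v0a2 call was lost without WT unstimulated library 1 or 3 (adjusted p 0.0585 and 0.106) or WT 48 h library 2 or 3 (0.0966 and 0.0616), and the Atp6v0a1 and Atp6v0a2 calls without the libraries with Y-linked transcripts (0.065 and 0.082).

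In V1, Atp6v1a, the catalytic subunit that binds ATP, rose from 21.17, 22.85 and 22.41 to 35.92, 38.22 and 35.10 RPKM in WT and from 22.89, 23.96 and 21.41 to 41.06, 39.43 and 36.70 RPKM in KO. The groups were well apart (log2 fold change 0.69, SE 0.07, limma adjusted p = 4.8e-07 in WT, and 0.75 in KO). Atp6v1c1 (0.36) and Atp6v1h (0.25) also rose in WT. The rotor subunits fell: Atp6v1d went from 95.13, 90.67 and 95.13 to 43.06, 46.85 and 49.89 RPKM in WT, a fall of 2.01-fold (log2 fold change -0.99, adjusted p = 2.04e-08). Atp6v1f, the most abundant V1 gene, went from 189.95, 213.09 and 209.71 to 152.34, 125.73 and 107.86 RPKM (-0.68, adjusted p = 5.9e-05). Atp6v1b2 (-0.45) and Atp6v1g1 (-0.45) fell as well, while Atp6v1e1 (-0.15, adjusted p = 0.0572) and Atp6v1g2 (0.11) did not pass. Under median-ratio scaling Atp6v1e1 was called lower (adjusted p = 0.00939) and Atp6v1h lost its call (0.0889), as it did without the libraries with Y-linked transcripts (0.559).

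**Figure D3:**
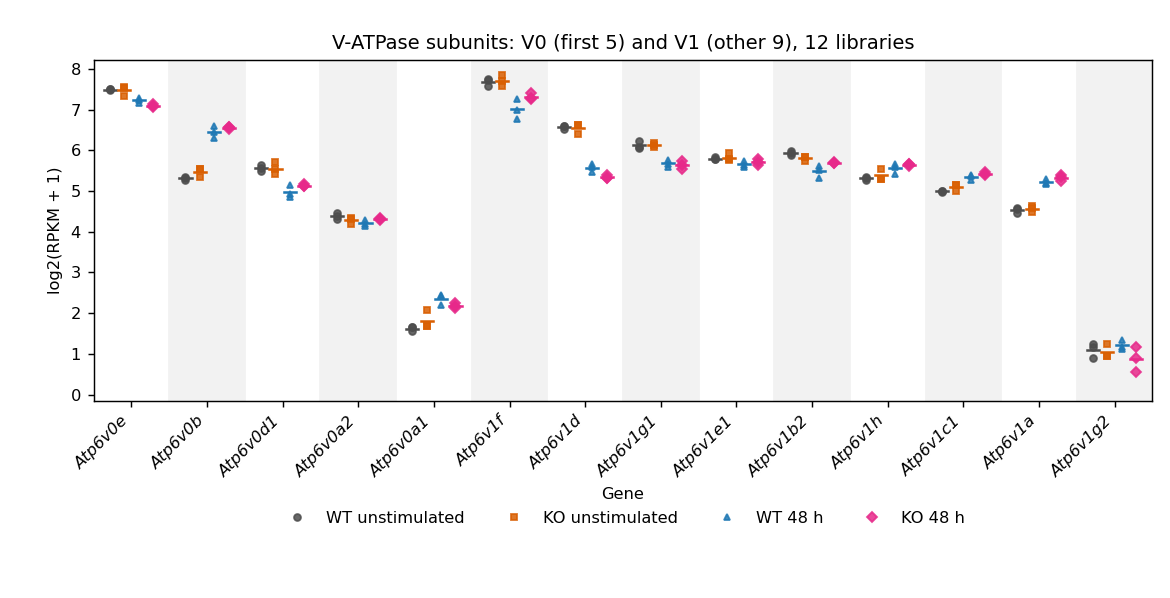
Levels of the 14 tested V-ATPase subunits on a log2(RPKM + 1) axis, 1 point per library and a bar at the mean of each group of 3, with the 5 V0 genes first. Atp6v0b and Atp6v1a rise with stimulation in both genotypes, while Atp6v1d and Atp6v0d1 fall.

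Where the name rule holds alternative subunits of the pump, the widely expressed ones carried nearly all of the RNA. Tcirg1, an alternative form of subunit a, falls outside the rule. Its mean was 7.24 RPKM in unstimulated WT and 13.1 RPKM in WT at 48 h. In the same groups Atp6v0a2 was at 20.0 and 17.5 RPKM and Atp6v0a1 at 2.08 and 4.13 RPKM. The isoforms of kidney and other specialised tissues, Atp6v0a4, Atp6v1b1, Atp6v1c2 and Atp6v1e2, reached at most 0.11 RPKM in any library. Atp6v0d2 reached 1.10, Atp6v0e2 0.60 and Atp6v1g3 0.55 RPKM, and none of these entered the test. The placental cathepsins Ctsj, Ctsm, Ctsq and Ctsr were at 0 throughout, Ctsk reached 0.09 RPKM and Ctsf 2.32 RPKM. Atp6v0c, the main proteolipid of the ring, was listed at no more than 0.10 RPKM. In the deposited table its exons share 1117 of 1151 bases with the entry Atp6v0c-ps2 on the same strand, which was at 0 in every library, so the value cannot be read as the level of the gene.

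Of the LAMP glycoproteins, which line the lysosomal membrane, Lamp1 was abundant and passed the test in no comparison. It was at 123.79, 137.36 and 142.08 RPKM in unstimulated WT, 153.23, 155.79 and 140.12 in unstimulated KO, 120.62, 129.90 and 141.77 in WT at 48 h and 135.02, 136.20 and 144.98 in KO at 48 h. These ranges overlapped in all 4 comparisons. Median-ratio scaling called it lower in stimulated KO cells (log2 fold change -0.22, limma adjusted p = 0.0134). Lamp3 and Lamp5, which belong to dendritic cells and brain, reached at most 0.05 RPKM.

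Ragulator subunits, which sit in one complex, did not move together. Lamtor2 went from 113.90, 117.31 and 105.22 to 44.80, 41.41 and 47.91 RPKM in WT, and from 97.07, 107.32 and 112.61 to 41.81, 44.52 and 43.22 in KO. The falls were 2.51-fold and 2.45-fold (log2 fold change -1.31, SE 0.07, limma adjusted p = 1.64e-09, and -1.27). Its roadblock-domain partner Lamtor3 rose from 21.40, 17.44 and 20.46 to 33.30, 34.86 and 34.29 RPKM in WT and from 21.61, 15.95 and 18.30 to 35.21, 38.17 and 37.89 in KO (0.76, adjusted p = 8.25e-06, and 0.97). Every stimulated Lamtor3 value was above every unstimulated one. Lamtor4 fell (-1.14 in WT and -1.13 in KO) and Lamtor1, the lipid-anchored subunit, rose (0.38 and 0.17). In KO the Lamtor1 call (adjusted p = 0.0264) was lost under median-ratio scaling (0.462) and without KO unstimulated library 1 or 2 (0.0586 and 0.0626) or KO 48 h library 3 (0.124). Lamtor5, the subunit with the highest mean level over all libraries, was at 80.44, 82.76 and 79.55 RPKM without and at 86.82, 85.56 and 80.78 RPKM with stimulation in WT, which overlap (0.06).

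The transcription factors of lysosomal genes also parted. Tfeb went from 8.14, 7.33 and 6.92 to 5.83, 4.32 and 3.79 RPKM in WT and from 6.55, 7.08 and 8.91 to 4.47, 3.74 and 4.33 in KO. It was lower in every stimulated library (log2 fold change -0.60, SE 0.14, limma adjusted p = 0.00106, and -0.71, adjusted p = 0.000269). Tfe3 rose from 9.09, 8.79 and 7.69 to 15.23, 14.29 and 14.64 RPKM in WT and from 9.51, 9.06 and 8.95 to 13.28, 14.60 and 16.25 in KO. Its stimulated libraries were all above the unstimulated ones (0.73, SE 0.08, adjusted p = 2.7e-06, and 0.62, adjusted p = 1.28e-05). Mitf, the third factor of the family, reached at most 0.25 RPKM. Of the 5 genes with TCACGTGA, Atp6v1a rose and Atp6v0d1, Atp6v0e, Ctsa and Ctsd fell in WT. Over all tested genes 44.5% were higher and 35.4% lower in that comparison, and a link of these 5 to the levels of Tfeb or Tfe3 was not tested.

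Fewer of these genes differed between the genotypes, and every one that passed was lower in KO. In unstimulated cells 2 of the 36 tested genes were lower in KO, where 5.83% of all tested genes were lower and 4.35% higher, and limma called 0 higher (1 at an unadjusted p under 0.05, 0 by limma-voom). At 48 h 6 of 36 were lower, against 9.81% of all tested genes, and 0 were higher, against 7.76% (3 at an unadjusted p, 1 by limma-voom). Median-ratio scaling gave 5 lower and 2 higher at 48 h, the higher ones being Atp6v1b2 and Ctsb, and over all genes of the unstimulated comparison it turned 453 higher and 607 lower into 677 and 501. Of the 6 genes lower at 48 h 4 were cathepsins. The V0, Ragulator and MiT/TFE genes had no call in either state, with 1 V0 gene lower at 48 h and 1 Ragulator gene higher in unstimulated cells at an unadjusted p, and none by limma-voom.

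**Figure D4:**
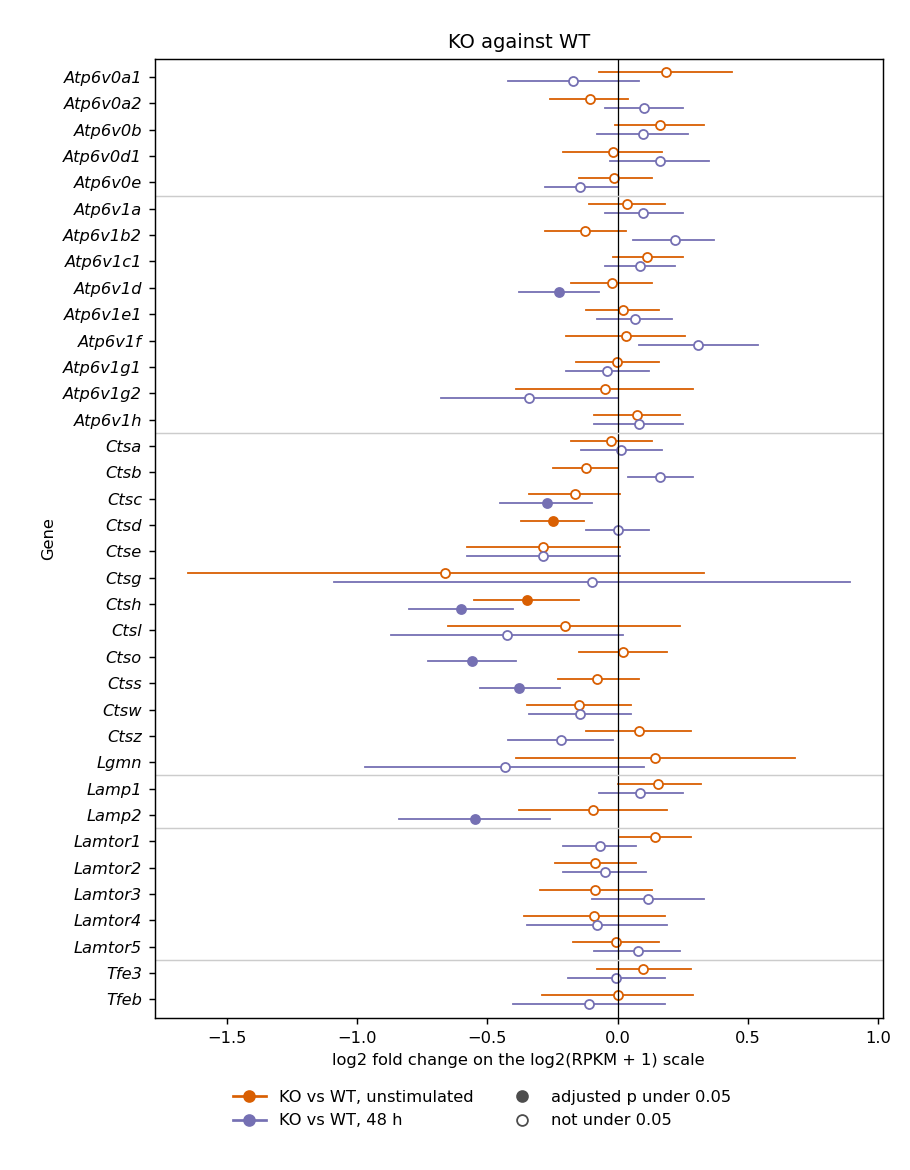
Log2 fold change of KO against WT for the 36 tested genes on the log2(RPKM + 1) scale, unstimulated (orange) and at 48 h (purple), with 95% confidence intervals from limma; filled points had an adjusted p under 0.05. The filled points are Ctsd and Ctsh without stimulation and Atp6v1d, Ctsc, Ctsh, Ctso, Ctss and Lamp2 at 48 h, all left of 0.

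At 48 h Ctso, Ctsh and Ctss were lower in KO, and these calls held in each of the 12 fits that left out a library and in every other setting in which the gene was tested. Ctso was at 1.75, 1.58 and 2.01 RPKM in WT and 0.94, 0.84 and 0.87 in KO, a 2.02-fold difference of means (log2 fold change -0.56, SE 0.08, limma adjusted p = 0.000353). Without stimulation its groups overlapped (0.02, adjusted p = 0.9), and the difference between the effects was itself called (interaction -0.58, SE 0.11, adjusted p = 0.0123, where 2.25% of all genes were called lower and 2.37% higher). That call was lost without the 4 libraries with Y-linked transcripts (adjusted p = 0.164). Ctsh, an aminopeptidase, was at 0.80, 0.77 and 0.84 RPKM in WT and 0.28, 0.16 and 0.13 in KO at 48 h. Its KO mean was 4.19-fold lower (log2 fold change -0.60, SE 0.09, adjusted p = 0.000766). These 48 h values all lie under the floor of 1 RPKM, which Ctsh passed only through unstimulated libraries. It was therefore not tested with the filter at 5 RPKM or with only the compared groups. Ctss, whose values are given above, was 1.31-fold lower in KO at 48 h, with every KO library at 76.27 RPKM or less and every WT library at 89.57 or more (-0.38, SE 0.07, adjusted p = 0.00309). The macrophage marker Cd68 was lower too (2.73 to 3.25 RPKM in WT, 0.63 to 1.00 in KO), while Lyz2 was at most 0.43 RPKM in all 6 libraries.

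Lamp2, a receptor of chaperone-mediated autophagy, was at 20.28, 24.63 and 28.70 RPKM in WT and 18.50, 14.40 and 16.21 in KO at 48 h. The groups did not overlap, but the WT libraries were spread, and KO was 1.5-fold lower (log2 fold change -0.55, SE 0.13, limma adjusted p = 0.0131). The call was lost without WT 48 h library 3 (0.0661) or KO 48 h library 2 (0.0618). From unstimulated to 48 h, Lamp2 in KO went from 23.90, 19.73 and 16.92 to these values (-0.28, adjusted p = 0.0685), and with KO libraries paired by number this fall was called (adjusted p = 0.0289). It was also called without KO unstimulated library 3 (0.0173), WT 48 h library 1 or 3 (0.0431 and 0.0481) or KO 48 h library 1 (0.0344), and under median-ratio scaling (-0.39, 0.0121).

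The remaining falls at 48 h were smaller, and their calls were lost when single libraries were left out. Ctsc was at 77.14, 77.18 and 75.99 RPKM in WT and at 61.03, 65.65 and 63.64 in KO, without overlap (log2 fold change -0.27, limma adjusted p = 0.0367). Its call was lost without WT unstimulated library 3 (0.0502), WT 48 h library 1, 2 or 3 (0.0566, 0.0987 and 0.0877) or KO 48 h library 1, 2 or 3 (0.107, 0.0676 and 0.1), and in 4 of 9 other settings, with adjusted p up to 0.209. Atp6v1d was at 43.06, 46.85 and 49.89 RPKM in WT and 40.94, 38.88 and 39.09 in KO, also without overlap (-0.23, adjusted p = 0.0455). Its call was lost without WT unstimulated library 1, 2 or 3 (0.0592, 0.0594 and 0.0622), WT 48 h library 2 or 3 (0.118 and 0.181) or KO 48 h library 1, 2 or 3 (0.0694, 0.129 and 0.135), and in 6 of 9 other settings, with adjusted p up to 0.0797. In the other direction Atp6v1b2 (0.22, adjusted p = 0.0526), Atp6v1f (0.31, adjusted p = 0.065) and Ctsb (0.16, adjusted p = 0.0684) lay just outside the threshold.

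Without stimulation, Ctsd was at 188.77, 191.14 and 203.62 RPKM in WT and 156.78, 167.27 and 166.68 in KO. The groups were apart by 1.19-fold (log2 fold change -0.25, SE 0.05, limma adjusted p = 0.0122), and at 48 h they overlapped (0.00). The unstimulated call was lost without WT library 3 (0.0643), with only the unstimulated groups fitted (0.0541) and without the 4 libraries with Y-linked transcripts (0.137). Ctsh was at 3.39, 3.91 and 3.79 RPKM in WT and 2.74, 2.71 and 2.59 in KO, 1.38-fold lower (-0.35, SE 0.09, adjusted p = 0.031). Its call was lost without WT unstimulated library 2 or 3 (0.1 and 0.0956) or KO unstimulated library 1 or 3 (0.0545 and 0.0827), and in 6 of 8 other settings, with adjusted p up to 0.304. The macrophage and monocyte markers, which include genes of cells rich in cathepsins, summed to less in unstimulated KO than in unstimulated WT, as given above, and their part in these differences was not tested.

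Genes around the pump and the proteases were read from 6 lists. Their counts stand beside the shares of all tested genes, which were 44.5% higher and 35.4% lower with stimulation in WT, 4.35% higher and 5.83% lower in unstimulated KO against WT, and 7.76% higher and 9.81% lower in KO at 48 h. Of 16 tested subunits and partners of the V-ATPase outside the name rule, 7 rose and 8 fell with stimulation in WT, and 1 was higher and 1 lower in KO against WT in each state, against all-gene shares called in either direction of 79.9%, 10.2% (unstimulated) and 17.6% (48 h). Ncoa7 and Oxr1, related proteins that bind the pump, were these calls: Ncoa7 was higher in KO (log2 fold change 0.61 unstimulated, limma adjusted p = 0.019, and 0.59 at 48 h, adjusted p = 0.0147), and Oxr1 was lower (-0.30, adjusted p = 0.0373, and -0.51, adjusted p = 0.000962). The Ncoa7 values were 18.04, 21.24 and 19.41 RPKM in unstimulated WT and 34.83, 29.36 and 27.33 in KO, which do not overlap. The unstimulated Ncoa7 call was lost without WT unstimulated library 1 or 3 (0.077 and 0.0639) or KO unstimulated library 1 (0.0712), and the 48 h call without KO 48 h library 1 (0.0529). Both Ncoa7 calls were also lost when Y-linked transcripts were a term of the model (0.0738 and 0.0522) or WT libraries 1 and 2 were left out of both states (0.255 and 0.136). The unstimulated Oxr1 call was lost without WT unstimulated library 2 or 3 (0.0954 and 0.14), KO unstimulated library 1 or 3 (0.0663 and 0.121), WT 48 h library 2 (0.0546) or KO 48 h library 2 or 3 (0.0517 and 0.0544), and in 4 other settings, with adjusted p up to 0.231. Oxr1 and Ostm1, a partner of the lysosomal chloride carrier, both fell with stimulation in WT (-1.39 and -0.98).

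Of 40 tested lysosomal hydrolases other than cathepsins, 25 fell and 10 rose with stimulation in WT, against 35.4% and 44.5% of all tested genes, with a median of -0.65 against 0.11. The acid lipase Lipa fell from 78.02, 79.59 and 78.33 to 17.17, 17.22 and 15.54 RPKM (log2 fold change -2.18), and the glucuronidase Gusb rose from 22.39, 21.95 and 24.93 to 85.78, 84.73 and 73.82 RPKM (1.77). In KO against WT 3 hydrolases were lower without stimulation, against 5.83% of all tested genes, and 6 were lower and 1 higher at 48 h, against 9.81% and 7.76%. Gm2a, the activator protein for GM2 ganglioside breakdown, was at 50.97, 48.21 and 53.50 RPKM in WT and 26.50, 19.57 and 20.43 in KO at 48 h (-1.17, limma adjusted p = 3.72e-06). Ggh, which trims folates, was at 14.24, 17.28 and 19.86 RPKM in WT and 7.69, 6.79 and 6.23 in KO (-1.19, adjusted p = 3.14e-05). For both, every KO library lay well below every WT library. Galc, a galactolipid hydrolase, was at 1.63, 2.15 and 1.72 against 0.76, 0.71 and 0.59 RPKM (-0.74, adjusted p = 0.000581). Only these 3 WT libraries reached 1 RPKM, so Galc, 1 of the 6 called lower, entered the test through the group where it was higher. Its KO values lie under that floor, and it was tested in only 9 of the 12 fits that left out a library.

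Of 30 tested membrane proteins and transporters of the lysosome, 10 rose and 14 fell with stimulation in WT, and in KO against WT at 48 h 3 were higher and 4 lower, where 79.9% and 17.6% of all tested genes were called in either direction. Laptm5, a lysosomal protein of blood cells, fell from 787.25, 742.56 and 756.99 to 143.37, 139.97 and 155.50 RPKM in WT (log2 fold change -2.38). At 48 h the lipid exporter Spns1 was higher in KO (22.27, 22.36 and 24.17 RPKM against 17.19, 13.49 and 12.88 in WT, 0.63, limma adjusted p = 0.00683), and the nucleoside carrier Slc29a3 was lower (-0.47, adjusted p = 0.00915). Cd68, counted above among the macrophage markers, was lower in KO at 48 h (log2 fold change -1.07, adjusted p = 0.000291). Of 25 tested sorting genes, 13 rose and 6 fell with stimulation in WT, and in KO against WT at 48 h 2 were higher and 5 lower, beside the same 79.9% and 17.6%. Ap3b1, a subunit of the AP-3 coat that carries cargo to lysosomes, was at 34.93, 40.39 and 40.42 RPKM in WT and 20.77, 20.67 and 21.68 in KO at 48 h (-0.84, adjusted p = 1.46e-05). The KO values lay at about one level, far below the WT ones. The GTPase Arl8a, which moves lysosomes, and the retromer subunit Vps26a were lower in KO (log2 fold change -0.59 and -0.67, adjusted p = 0.000113 and 0.000271).

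Of 29 tested Rag and mTORC1 partners, 18 rose and 4 fell with stimulation in WT, against 44.5% and 35.4% of all tested genes. In KO against WT 3 were higher without stimulation, against 4.35%, while 5 were higher and 1 was lower at 48 h, against 7.76% and 9.81%. Wdr59, a subunit of the GATOR2 complex that favours mTORC1, was at 7.07, 7.19 and 6.97 RPKM in WT and 16.49, 13.04 and 13.41 in KO at 48 h (log2 fold change 0.92, limma adjusted p = 0.000326). The sestrins, which hold mTORC1 back, went opposite ways: Sesn1 was higher in KO (0.51, adjusted p = 0.000661) and Sesn3 lower (-0.75, adjusted p = 0.00092). Sesn1 was at 7.87, 7.83 and 7.57 RPKM in WT and 11.21, 11.68 and 11.62 in KO, and Sesn3 at 22.52, 24.39 and 28.64 against 12.27, 16.27 and 15.34 RPKM. Neither pair of groups overlapped.

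Of 12 tested protease inhibitors, 5 were lower in unstimulated KO, against 5.83% of all tested genes, and 4 were higher and 3 lower in KO at 48 h, against 7.76% and 9.81%. Among the inhibitors named here, Ctla2b, Serpinb6a, Cst7, Serpinb9 and Serpinb6b were chosen after their values were seen. Ctla2a, whose product resembles the propeptide of cathepsin L and inhibits it, was at 9.43, 8.95 and 10.52 RPKM in unstimulated WT and 0.60, 1.39 and 1.66 in KO. At 48 h it was at 7.54, 5.86 and 7.63 RPKM in WT and 0.38, 0.66 and 0.72 in KO, so the genotypes were far apart in both states (log2 fold change -2.30, limma adjusted p = 3.08e-06, and -2.34, adjusted p = 1.66e-06). Its near copy Ctla2b (-0.90 and -1.06) and Serpinb6a (-0.35 and -1.09) were also lower in both states. In each state Ctla2b was tested in 6 other settings, against 9 for Ctla2a, since it did not pass the filter in the rest. How reads were shared between Ctla2a and Ctla2b was not tested. The unstimulated Serpinb6a call (adjusted p = 0.0213) was lost without WT unstimulated library 2 or 3 or KO unstimulated library 1, with adjusted p up to 0.0732, with Y-linked transcripts as a term (0.0989) and when WT libraries 1 and 2 of both states were left out (0.293). Cst7, cystatin F, an inhibitor of cathepsin C, was lower without stimulation (137.06, 115.55 and 123.15 RPKM in WT, 66.58, 27.04 and 23.74 in KO, -1.80, adjusted p = 0.00204), and at 48 h its groups overlapped. Serpinb1a, best known as an inhibitor of neutrophil elastase, was lower without stimulation (-0.68, adjusted p = 0.00964). The Cst7 and Serpinb1a calls were lost when the same 4 libraries were left out (0.145 and 0.108), and a pseudocount of 0.1 also lost that of Serpinb1a (0.135).

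In the opposite direction, Serpina3g, which in mouse lymphocytes inhibits cathepsin B, was at 29.89, 24.90 and 25.47 RPKM in WT and 109.47, 115.72 and 110.24 in KO at 48 h. Without stimulation the groups overlapped (43.13, 45.24 and 44.70 against 49.30, 41.03 and 41.94 RPKM), and at 48 h every KO library was far above every WT one (log2 fold change 2.03, SE 0.08, limma adjusted p = 2.39e-08). Serpina3f was at 10.87, 11.32 and 11.33 RPKM in WT and 38.10, 54.93 and 53.58 in KO at 48 h (2.02, adjusted p = 1.33e-06). The pair are near-identical neighbours listed with the same start on chromosome 12, so the share of reads that belongs to each is uncertain. Serpinb9 and Serpinb6b were the other rises at 48 h (1.49, adjusted p = 0.00169, and 1.56, adjusted p = 0.00488), and Serpinb9 is best known as an inhibitor of granzyme B. Both calls were lost without the 4 libraries with Y-linked transcripts (adjusted p = 0.0745 and 0.088).

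**Figure D5:**
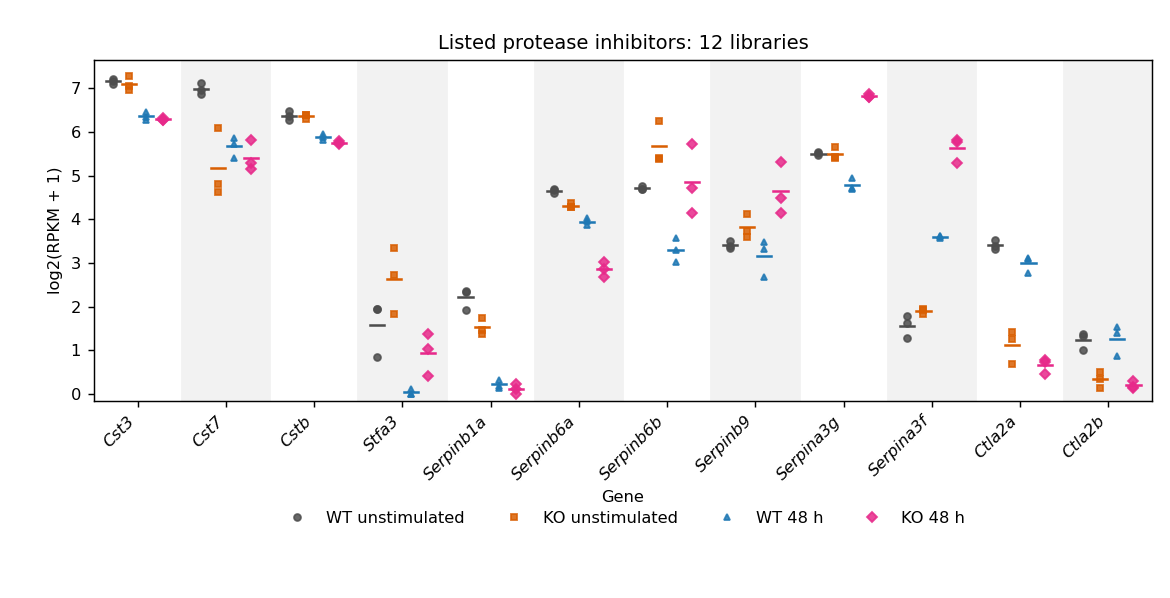
Levels of the 12 tested protease inhibitors on a log2(RPKM + 1) axis, 1 point per library and a bar at the mean of each group of 3. Serpina3g and Serpina3f at 48 h lie higher in KO than in WT, and Ctla2a and Ctla2b lie lower in KO in both states.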

How the data were processed

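The members and gene lists were chosen with earlier results of these data known. Libraries were made from polyadenylated RNA with a kit that keeps the strand, per the labels' protocols. The submitters' processing notes name FastQC, STAR, featureCounts of Subread, DESeq2 and the build mm10, without roles. No source used here gives the counting strand setting or the annotation. The authors deposited 1 table of RPKM values with each gene's exon length. Its products of RPKM and length were whole multiples of 1 step (100% within 0.01), and the reads worked out from them were used for depth and for one alternative. 27 of 24421 entries carried a spreadsheet date for a symbol and were left out.

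The planned test was kept: limma 3.58.1 (R 4.3.3, moderated with a mean trend) on log2(RPKM + 1), over 10406 genes with at least 1 RPKM in 3 libraries. One model held the 4 groups of 12 libraries (8 residual degrees of freedom) and 5 contrasts, with Benjamini-Hochberg adjustment and a threshold of 0.05. It was tested on simulated data. Replicate pairs differed by more than counting error (chi-square per degree of freedom 5.67 to 37.98). Same-numbered libraries were read as pairs where every pair deviated together with a correlation over 0.1, which held for KO unstimulated and 48 h libraries (0.274, 0.190 and 0.110) and not for WT (0.075, 0.134 and 0.146) or across genotypes.

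Alternatives were a pseudocount of 0.1, no filter or one at 5 RPKM, median-ratio scaling, limma-voom on reads, the compared groups alone, replicate blocks, a term for Y-linked transcripts or leaving those libraries out, and leaving out each library. Named members were those called between genotypes or in the interaction, the 5 largest rises and falls in WT stimulation with a mean of at least 5 RPKM, the highest of each class, and Tfeb, Tfe3 and Mitf. From each neighbour list up to 3 genes came from the genotype tests and up to 2 from WT stimulation. Promoters are RefSeq's on GRCm38.p6.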

Additional observations from a re-analysis of the deposited data

Results flagged for a closer look

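The effect of stimulation differed between KO and WT for Batf and 10 of the protease, lysosomal and inhibitor genes named, each by the interaction test of limma. The values here are KO minus WT on the log2 scale. Over all tested genes 2.37% were called higher and 2.25% lower in the interaction. The genes were named in part for a small adjusted p in this test or between genotypes, so the count of 10 cannot be set against these shares. Among the proteases only Ctso was called, at -0.58. Hydrolases and sorting genes with a lower response in KO were Ggh at -0.87, Ap3b1 at -0.66, Gm2a at -0.57, Vps26a at -0.52 and Arl8a at -0.41. Of these, the calls of Gm2a, Vps26a and Arl8a were lost in 8, 9 and 9 of the 12 fits that left out a library. Serpinb6a was at -0.74, while Serpina3g at 2.04 and Serpina3f at 1.69 had a higher response in KO. Laptm5 was at 0.34, and this call was lost in 8 of 12 fits. Batf itself was at -1.08, lost in 5 of 12. Of the cell type markers, Ctla4 (-2.02, adjusted p = 0.000174) was also called. So were the macrophage markers Cebpa (1.74, 0.000174), C1qb (0.97, 0.0174) and C1qc (0.92, 0.0242), and the dendritic cell marker Xcr1 (-1.19, 0.000677). At 48 h C1qb was at 0 in every library, and Cebpa, C1qc and Xcr1 reached at most 0.25 RPKM. The values of Cebpa, C1qb, C1qc and Xcr1 therefore largely restate their unstimulated genotype differences with the sign reversed (-1.91, -0.97, -0.87 and 1.38). With the replicate block by genotype and number the Laptm5 and Arl8a calls were lost (0.0584 and 0.0501), and Cst7 (1.55, adjusted p = 0.00208), Serpinb9 (1.08, 0.024) and Spns1 (0.68, 0.0389) were called, as was Lgmn (-0.58, 0.025). When the 4 libraries that hold Y-linked transcripts were left out, the calls of Serpina3g and Serpina3f remained (adjusted p up to 0.0023 and 0.0472 over the other settings), and those of Batf and the other 8 lysosomal and inhibitor genes were lost.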

How the results depend on the processing

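Of 7174 values of 340 single-gene results under the alternatives, 6860 kept direction and side of the threshold, 264 lost a call, 50 gained one and 0 reversed. The calls of members by stimulation varied little, with 18 to 21 lower in WT when single libraries were left out. The 2 members lower in unstimulated KO became 1 with a pseudocount of 0.1, a filter at 5 RPKM, limma-voom, the replicate block over 12 libraries or the term for Y-linked transcripts, and 0 with only the groups compared or without the libraries with those transcripts, and 3 with no filter, and ran from 0 to 2 with single libraries left out. At 48 h the 0 members higher became 1 with the filter at 5 RPKM or limma-voom and 2 with median-ratio scaling, the Y term or without those libraries (Atp6v1b2 in each, at adjusted p 0.0293 to 0.0488), and 0 to 3 with single libraries left out. The 6 lower at 48 h ran from 3 to 6 with single libraries left out, and became 4 with no filter, the groups compared, the replicate block over 12 libraries or without those libraries. In the interaction the 1 lower became 2 with a pseudocount of 0.1 or limma-voom (Ctsh was added, at adjusted p 0.0299 and 0.0458) or with the replicate block by genotype and number (Lgmn, at 0.025), and 0 without the libraries with Y-linked transcripts, and 1 to 2 with single libraries left out, when the 0 higher became up to 1. The replicate block over 12 libraries also lost Ctsh without stimulation (adjusted p = 0.0547) and Ctsc and Atp6v1d at 48 h (0.0517 and 0.0761). Fitting only the compared groups gives the interaction no further value, since it uses all libraries. Without the libraries with Y-linked transcripts each WT state has 1 library, assumed to vary like the other groups, and calls over all genes between unstimulated genotypes then fell from 453 higher and 607 lower to 40 and 45. That fit holds fewer samples, and other causes were not tested. In the WT stimulation comparison that fit called 16 members lower and 8 higher. Ctsh, Ctso and Ctse at 48 h lie near the pseudocount of 1 RPKM, so their log2 values understate the ratio of their means.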
